A study of Homo sapiens and Mus musculus with 28 samples.

Results

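Addition of H-151 to iR4 was compared with iR4 alone in SCC1, a human squamous carcinoma cell line of head and neck cancer, by counting polyadenylated RNA. The comparison rests on 6 of the 28 libraries of the series, 3 labelled H151_iR4 and 3 labelled iR4, taken by their titles. H-151 is a small molecule that binds covalently to the adaptor protein STING and blocks its signalling. What iR4 stands for is not spelled out in the labels, and the name is used here as they give it. A Vehicle group of 3 SCC1 libraries, taken by its title as of the same set of treatments, gives the level without either agent. These groups are called the iR4 experiment below, and whether they share a batch is not known here. A further pair of groups, 3 libraries labelled KO_2_H151 and 3 labelled R4KO_2_Vehicle, gives H-151 in REXO4-knockout SCC1 cells, where KO_2 and R4KO_2 are the labels' own spellings of the knockout line numbered 2. All of these groups share the SCC1 background. Doses, times and the meaning of a replicate are not stated in the labels, and a single knockout line carries the second pair. No library of this set received H-151 without iR4, so an action of H-151 on its own and an action on what iR4 does cannot be told apart.

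The pathway that H-151 targets reads DNA in the cytosol. The enzyme cGAS binds double-stranded DNA and makes the second messenger cGAMP, cGAMP binds STING on the endoplasmic reticulum, and STING moves to the Golgi, where it recruits the kinase TBK1. TBK1 phosphorylates the transcription factor IRF3, which switches on type I and type III interferons and a first set of antiviral genes, and STING also feeds into NF-kB and cytokine genes. Secreted interferon then acts through its receptors, JAK kinases and STAT factors on a wider set of interferon-stimulated genes. REXO4, the nuclease named in the title of the series, is an RNA exonuclease of the nucleolus. Its knockout is the other arm of the study.

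Depth was 16.04, 21.9 and 18.49 M counts in the H151_iR4 libraries, 21.28, 18.03 and 21.58 M in the iR4 libraries and 19.43, 21.01 and 21.65 M in the Vehicle libraries. Replicates of a group resembled each other, with a chi-square per degree of freedom of 1.92 to 4.42 between libraries of 1 group, so none was a second copy of another. All 8 squamous carcinoma markers were detected at testable levels (KRT5 at 497 ± 13.4 CPM in H151_iR4, 508 ± 24.3 CPM in iR4), while none of 6 leukocyte markers reached a testable level. Of 6 fibroblast markers 4 were testable, COL1A1 at 23.7 ± 0.652 CPM in H151_iR4 and 34.6 ± 2.87 CPM in iR4, and of 5 endothelial markers 1 was. The 13 mitochondrially encoded mRNAs are listed at 0 in all libraries and are not used here.

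H-151 with iR4 gave an expression profile far from that of iR4 alone and close to that of Vehicle. Of 14000 genes tested, 4916 were higher in H151_iR4 than in iR4 (35.1%) and 5076 were lower (36.3%), at an adjusted p under 0.05 in edgeR's quasi-likelihood test with Benjamini-Hochberg adjustment. With a change of 2-fold or more, 433 genes (3.09%) were higher and 1291 (9.22%) were lower, so the large changes were more often falls. The 3 libraries of H151_iR4 lay wholly above the 3 of iR4 for 5012 genes (35.8%) and wholly below them for 5211 (37.2%). Tested against a minimum fold of 1.5 in place of any change, 769 genes were higher and 1597 lower. The median log2 fold change of all genes tested was -0.01. The shares of 35.1% higher and 36.3% lower are the background for every count of list members against iR4 below. Values are counts scaled to library size (CPM, with TMM factors), means are given ± SD over 3 libraries, and fold changes are log2 of H151_iR4 over iR4 unless another pair is named. CPM is not corrected for gene length, so a level is compared between groups for 1 gene and not between genes. In RNA from whole cultures, fewer cells that express a gene and less RNA of it per cell cannot be told apart.

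Against Vehicle, H151_iR4 was higher for 1220 genes (8.71%) and lower for 1341 (9.58%), of which 37 and 78 reached 2-fold. The shares of 8.71% and 9.58% are the background for counts of list members of H151_iR4 against Vehicle below. iR4 was higher than Vehicle for 5197 genes (37.1%) and lower for 4875 (34.8%), of which 1201 and 411 reached 2-fold. The root mean square log2 difference between group means was 0.704 between H151_iR4 and iR4, 0.253 between H151_iR4 and Vehicle, and 0.68 between iR4 and Vehicle. These comparisons share libraries, so their values are given side by side and not as separate evidence. In a principal component analysis of the 9 libraries, PC1 held 76.7% of the variance and set iR4 apart from both other groups, and PC2 held 7.91% and separated H151_iR4 from Vehicle.

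**Figure D1:**
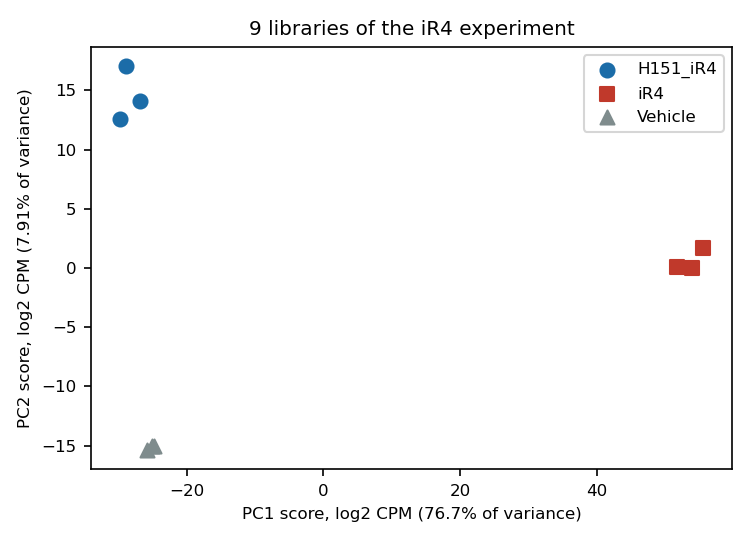
Scores of the 9 libraries of the iR4 experiment on the first and second principal components of log2 CPM (axes give the percentage of variance, points are libraries, colours and shapes are groups). The iR4 libraries lie at the right of PC1 (76.7%), and PC2 (7.91%) separates the 3 H151_iR4 libraries at the top from the 3 Vehicle libraries at the bottom.

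REXO4 (ENSG00000148300, chr9:133406059-133418096 on the minus strand, GRCh38) was higher with H-151. It had 90.6, 86.98 and 91.01 CPM in H151_iR4 libraries, 61.8, 56.9 and 61.9 CPM in iR4 libraries and 90.1, 96.4 and 95.5 CPM in Vehicle libraries (log2 fold change 0.57, SE 0.04, adjusted p = 1.24e-11). Every H151_iR4 library was above every iR4 library, and the H151_iR4 and Vehicle means did not differ beyond the test's threshold (log2 difference -0.07, adjusted p = 0.246). The labels name no REXO4 knockout in these groups, so its level gives no check of a knockout in these groups.

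Members of the cGAS-STING-TBK1 pathway were mostly lower in H151_iR4, by less than 2-fold. Of 21 members, 20 were testable, 12 were lower, 4 were higher and 4 did not pass the test, with a median log2 fold change of -0.20, beside the background of 36.3% lower and 35.1% higher over all genes. The sensor CGAS (ENSG00000164430, chr6:73413515-73452276) had 60.5, 61.4 and 61.6 CPM in H151_iR4 libraries, 108, 106 and 131 CPM in iR4 libraries and 58.8, 55.5 and 61.5 CPM in Vehicle libraries (log2 fold change -0.91, SE 0.06, adjusted p = 6.2e-13). The adaptor STING1, the target of H-151 (chr5:139475534-139482935), had 31.9, 30.4 and 30.9 CPM in H151_iR4 libraries, 49.3, 50.8 and 48.9 CPM in iR4 libraries and 27.4, 28.7 and 26.2 CPM in Vehicle libraries (log2 fold change -0.68, SE 0.05, adjusted p = 1.12e-11). For both, the H151_iR4 and iR4 libraries did not overlap, and the H151_iR4 libraries were near the Vehicle libraries, with STING1 a little above them (log2 difference 0.18, adjusted p = 0.0267).

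TBK1, the kinase downstream of STING, moved the other way, with 53.7, 53.8 and 53.9 CPM in H151_iR4 libraries, against 44.3, 43.8 and 42.2 CPM in iR4 libraries (log2 fold change 0.31, SE 0.04, adjusted p = 1.19e-06). Its substrate IRF3 averaged 72.99 ± 2.98 CPM in H151_iR4 and 74.8 ± 2.75 CPM in iR4 and did not pass the test (log2 fold change -0.04, adjusted p = 0.441). IKBKE, the kinase most related to TBK1, averaged 11.8 ± 0.86 CPM in H151_iR4 and 13.4 ± 0.348 CPM in iR4 (adjusted p = 0.0605). Among the adaptors of TBK1, TBKBP1 and TANK were lower (log2 fold changes -0.61 and -0.27), while AZI2 was at -0.00 (adjusted p = 0.979). Of the other rises, SURF4, a cargo receptor that returns STING to the endoplasmic reticulum, was at 0.47, and STEEP1, which helps STING leave it, at 0.33.

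The DNA sensor IFI16 averaged 125 ± 2.295 CPM in H151_iR4, 212 ± 10.4 CPM in iR4 and 137 ± 3.31 CPM in Vehicle (log2 fold change -0.76, SE 0.04, adjusted p = 3.72e-15). ULK1, an autophagy kinase that also acts on STING, averaged 64.95 ± 3.37 CPM in H151_iR4, 116 ± 2.31 CPM in iR4 and 51.4 ± 1.78 CPM in Vehicle (log2 fold change -0.84, SE 0.04, adjusted p = 3.16e-15), and its H151_iR4 level stayed above Vehicle (log2 difference 0.34, adjusted p = 4.69e-06). The ubiquitin ligases TRIM56 and RNF5, which modify STING, were lower at -0.38 and -0.25, and ENPP1, the enzyme that degrades cGAMP outside cells, at -0.45. Of the nucleases that clear stray nucleic acid, RNASEH2A (-0.16), RNASEH2C (-0.22) and SAMHD1 (-0.14) were lower, and RNASEH2B did not pass (log2 fold change 0.07, adjusted p = 0.164). The SAMHD1 call was lost without H151_iR4 replicate 1 (adjusted p = 0.137) or iR4 replicate 2 (0.0636). TREX1, the main cytosolic DNA exonuclease, is listed at 0 counts in all 9 libraries, and it lies within the span of ATRIP.

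RNA of the interferon genes themselves was barely detected. IFNB1, the classical target of IRF3, had 0, 0 and 0 counts in H151_iR4 libraries, 3, 0 and 3 counts in iR4 libraries and none in Vehicle libraries, and IFNL1, a type III interferon, had 0, 0 and 0 counts, 7, 3 and 3 counts and none. With a floor of 3 counts put in place of the 0 of H151_iR4, the ratio of iR4 to H151_iR4 was 1.7 for IFNB1 and 3.67 for IFNL1. The iR4 counts were taken as they stood, without their own counting error, so these ratios are not lower bounds. Neither gene was tested. IFNA1 had 4 counts in H151_iR4, 2 in iR4 and 4 in Vehicle over 3 libraries, IFNK had 1 count in iR4 and none in the others, and IFNL2 and IFNL3 had none. IFNE, a type I interferon of epithelia whose expression does not depend on infection, was the exception, with 2.51, 2.93 and 2.44 CPM in H151_iR4 libraries, 0.528, 0.364 and 0.392 CPM in iR4 libraries and 2.62, 1.98 and 2.897 CPM in Vehicle libraries (log2 fold change 2.6, SE 0.25, adjusted p = 1.55e-09). It was low in every iR4 library. A noncoding gene, MIR31HG, overlaps IFNE on the same strand, and reads of the overlap cannot be assigned to one of them.

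The interferon receptors and the JAK-STAT machinery were lower with H-151 in most cases. Of 24 genes in the list of ligands, receptors and JAK-STAT members, 18 were testable, 13 were lower and 2 higher, with a median of -0.38. Of the type I receptor chains, IFNAR1 was at 0.07 (adjusted p = 0.162) and IFNAR2 at 0.04 (adjusted p = 0.637), so neither passed. The type III receptor chains IFNLR1 (-0.40) and IL10RB (-0.29) and the type II chain IFNGR1 (-0.47) were lower, and IFNGR2 did not pass (log2 fold change -0.09, adjusted p = 0.147). The kinases JAK1 (-0.45), JAK2 (-0.35) and TYK2 (-0.28) were each lower.

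Parts of the interferon-activated complex ISGF3 were lower. STAT2 averaged 25.5 ± 3.48 CPM in H151_iR4, 48.1 ± 1.32 CPM in iR4 and 25.96 ± 0.844 CPM in Vehicle (log2 fold change -0.91, SE 0.07, adjusted p = 4.62e-12) and IRF9 1.29 ± 0.31 CPM in H151_iR4, 2.76 ± 0.433 CPM in iR4 and 1.27 ± 0.311 CPM in Vehicle (log2 fold change -1.06, adjusted p = 8.85e-05). Of the interferon regulatory factors, IRF7, which amplifies interferon production, averaged 5.35 ± 0.418 CPM in H151_iR4, 18.02 ± 1.17 CPM in iR4 and 4.77 ± 1.03 CPM in Vehicle (log2 fold change -1.75, SE 0.11, adjusted p = 1.89e-13), and IRF1 averaged 35.7 ± 3.07 CPM in H151_iR4, 71.9 ± 2.92 CPM in iR4 and 41.00 ± 3.03 CPM in Vehicle (log2 fold change -1.01, SE 0.06, adjusted p = 6.27e-14). The feedback inhibitors of JAK-STAT signalling fell too. SOCS3 was lower at -1.72, SOCS1 at -1.47 and USP18, which shuts off the type I receptor, at -0.35.

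Most interferon-stimulated genes were lower with H-151. Of 61 genes in the list, 56 were testable, 49 were lower (25 of them 2-fold or more) and 4 higher, with a median of -0.89. OASL, a ubiquitin-like relative of the antiviral oligoadenylate synthetases and the gene with the largest fall among those named by the size of change, had 2.64, 3.07 and 1.22 CPM in H151_iR4 libraries, 165, 146 and 142 CPM in iR4 libraries and 32.5, 33.7 and 32.9 CPM in Vehicle libraries (log2 fold change -6.01, SE 0.11, adjusted p = 1.28e-23). IFIT2, which binds viral RNA, had 4.89, 6.47 and 5.05 CPM in H151_iR4 libraries, 109, 95.5 and 91.3 CPM in iR4 libraries and 33.4, 36.5 and 31.3 CPM in Vehicle libraries (log2 fold change -4.15, SE 0.09, adjusted p = 3.9e-22). HERC5, the ligase that attaches the modifier ISG15 to proteins, had 0.836, 1.16 and 0.887 CPM in H151_iR4 libraries, 25.8, 20.4 and 21.3 CPM in iR4 libraries and 6.47, 6.201 and 5.46 CPM in Vehicle libraries (log2 fold change -4.52, SE 0.15, adjusted p = 1.13e-18). For each of these the 3 groups were separate, with H151_iR4 lowest, Vehicle between and iR4 highest.

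These 3 genes were therefore lower in H151_iR4 than in cells that had neither agent. Their log2 differences from Vehicle were -3.81 for OASL, -2.61 for HERC5 and -2.60 for IFIT2 (adjusted p = 2.43e-16, 2.43e-10 and 1.55e-15). In the list as a whole, 21 of 56 members were below Vehicle in H151_iR4 and 0 above, beside 9.58% lower and 8.71% higher over all genes, and the median was -0.07. In iR4 itself, 47 members were above Vehicle and 5 below, with a median of 0.81. The largest of the 4 rises that met the naming rule was small. It was EIF2AK2, the antiviral kinase PKR, with 180.0, 188 and 193 CPM in H151_iR4 libraries, against 167, 165 and 173 CPM in iR4 libraries (log2 fold change 0.15, SE 0.04, adjusted p = 0.000563). IFIT2 overlaps LIPA on the opposite strand, and no source used here states whether the counting kept strands apart. RTP4, CXCL10, CXCL11, XAF1 and ZBP1 were under the filter on low counts, with 2, 0, 3, 0 and 0 counts in H151_iR4 and 35, 6, 22, 1 and 0 in iR4 over 3 libraries.

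ISGF3 and IRF factors bind a sequence called the interferon-stimulated response element. Its core was searched as a pair of GAAA 2 bases apart, on either strand, in the 250 bases before each gene start, in RefSeq promoters of build GRCh38.p14. It stood in 25 of the 43 list members matched by symbol (58.1%), in 252 of 10960 promoters of tested genes (2.3%) and in 839 of 27305 promoters of the table (3.07%). HERC5 is shown because it is a leading member of the list and its promoter holds the core, with 3 matches, 2 of which overlap. The promoters of OASL and IFIT2 were not searched here. The letters are from chr4:88456969-88457079 on the plus strand, all before the gene start, with the core in capitals. A match is a description of the letters, and no binding was measured.
HERC5: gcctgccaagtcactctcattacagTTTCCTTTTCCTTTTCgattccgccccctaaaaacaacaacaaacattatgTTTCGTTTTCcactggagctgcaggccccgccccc

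Genes that sense RNA or act on nucleic acids in the same response were lower as well. Of 12 testable members of the RNA sensing list 8 were lower and 2 higher, and RIGI, the receptor for short double-stranded RNA with 5' phosphates, had 7.98, 8.66 and 7.99 CPM in H151_iR4 libraries, 71.4, 63.1 and 71.5 CPM in iR4 libraries and 16.2, 17.9 and 16.9 CPM in Vehicle libraries (log2 fold change -3.06, SE 0.07, adjusted p = 1.2e-21). DHX58 averaged 2.47 ± 0.073 CPM in H151_iR4, 14.04 ± 0.647 CPM in iR4 and 4.54 ± 0.467 CPM in Vehicle (log2 fold change -2.50, SE 0.11, adjusted p = 4.62e-16), and both were below Vehicle (-1.04 and -0.88). TRIM25, a ligase of this pathway, was lower at -0.70, and RNF135, another, higher at 0.24. All 5 testable APOBEC3 cytidine deaminases were lower, with APOBEC3B at 10.8 ± 1.37 CPM in H151_iR4, 44.4 ± 2.06 CPM in iR4 and 14.8 ± 1.03 CPM in Vehicle (log2 fold change -2.03, SE 0.07, adjusted p = 9.54e-18) and APOBEC3C at -0.46. MHC class I presentation had 15 of 21 members lower and 6 higher. HLA-F averaged 12.5 ± 0.643 CPM in H151_iR4, 25.9 ± 0.722 CPM in iR4 and 14.3 ± 0.99 CPM in Vehicle (log2 fold change -1.05, adjusted p = 1.12e-12), the immunoproteasome subunits PSMB10 and PSMB9 were lower at -0.93 and -0.84, and CANX, the chaperone calnexin, was higher at 0.71. HLA-F overlaps its antisense gene, and PSMB9 overlaps PSMB8 and TAP1, so their counts may hold reads of these partners.

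**Figure D2:**
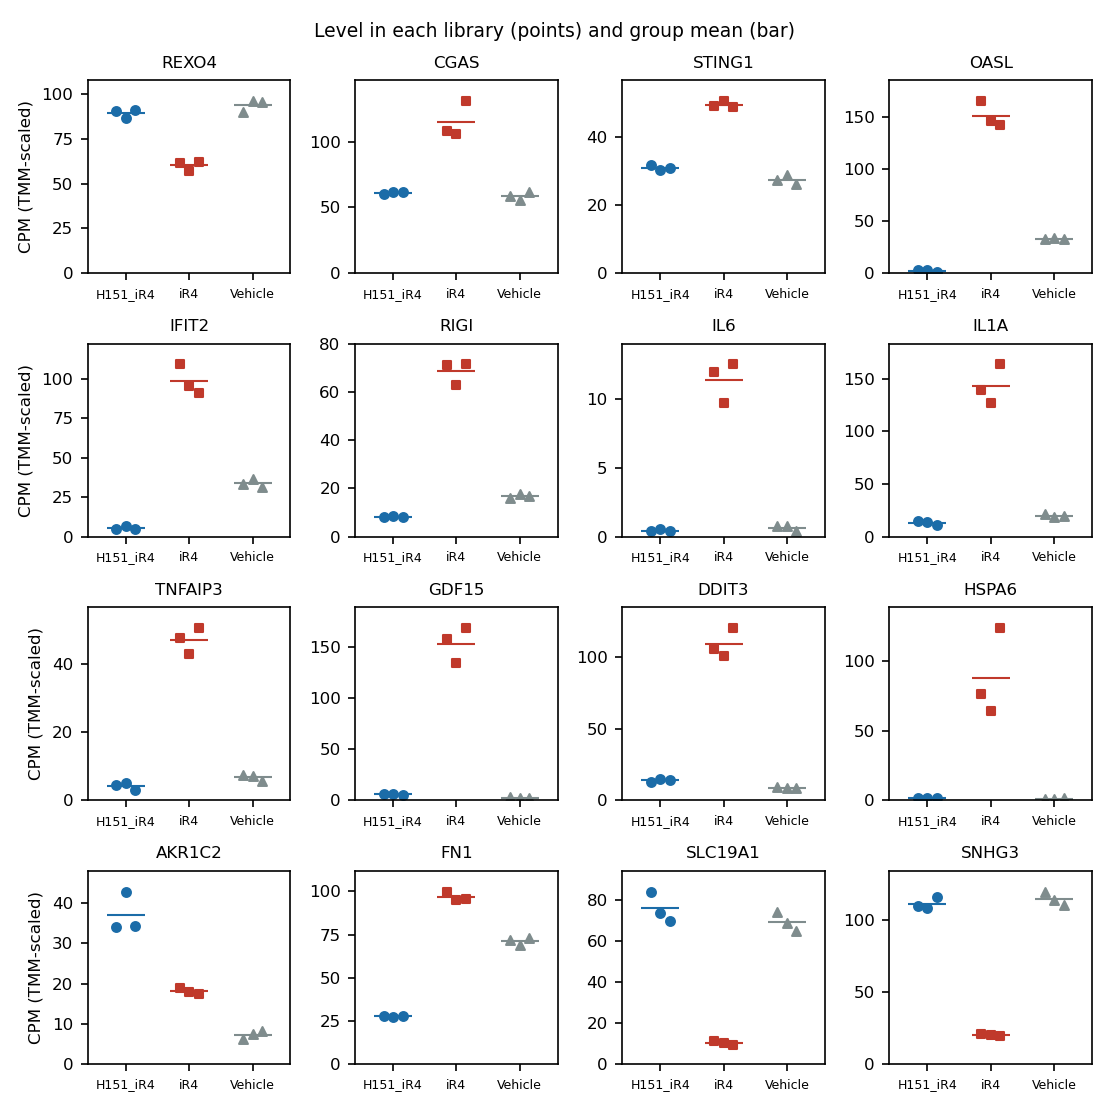
TMM-scaled CPM of 16 genes in each library (points, linear axes from 0) with group means (bars), for H151_iR4, iR4 and Vehicle, 3 libraries each. OASL, IFIT2 and RIGI are lowest in H151_iR4, IL6, TNFAIP3, GDF15, DDIT3 and HSPA6 are high in iR4 libraries, AKR1C2 is highest in H151_iR4, and SLC19A1 and SNHG3 are low in iR4.

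Cytokine genes showed the second lowest median of the lists, -2.62. Of 27 chemokine and cytokine genes 16 were testable, 14 were lower (12 of them 2-fold or more) and 1 was higher. IL6, a cytokine that NF-kB switches on, had 0.386, 0.558 and 0.388 CPM in H151_iR4 libraries, 11.9, 9.67 and 12.5 CPM in iR4 libraries and 0.802, 0.794 and 0.386 CPM in Vehicle libraries (log2 fold change -4.63, SE 0.20, adjusted p = 2.59e-16). IL1A, an alarmin held in epithelial cells, had 14.9, 13.96 and 10.7 CPM in H151_iR4 libraries, 139, 127 and 164 CPM in iR4 libraries and 21.8, 18.4 and 19.6 CPM in Vehicle libraries (log2 fold change -3.45, SE 0.09, adjusted p = 1.33e-20), and IL1B averaged 2.28 ± 0.47 CPM in H151_iR4, 30.98 ± 3.61 CPM in iR4 and 4.32 ± 1.09 CPM in Vehicle (log2 fold change -3.77, SE 0.14, adjusted p = 7.15e-18). The iR4 libraries were high for all 3, and H151_iR4 was below Vehicle for IL1A (-0.60) and IL1B (-0.91), while IL6 did not differ from Vehicle beyond the threshold (adjusted p = 0.385). TNF had 0 counts over the H151_iR4 libraries, 11 over the iR4 libraries and 0 over the Vehicle libraries, and CCL2 had 0, 7 and 0.

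Subunits and feedback targets of NF-kB followed, with 17 of 20 lower, 0 higher and a median of -0.73. TNFAIP3, the ubiquitin-editing enzyme A20 that ends NF-kB signalling, had 4.44, 5.03 and 3.05 CPM in H151_iR4 libraries, 47.5, 42.8 and 50.5 CPM in iR4 libraries and 7.54, 7.14 and 5.600 CPM in Vehicle libraries (log2 fold change -3.48, SE 0.11, adjusted p = 3.97e-19). TRAF1, an adaptor of TNF receptors, averaged 0.874 ± 0.33 CPM in H151_iR4, 10.8 ± 1.02 CPM in iR4 and 1.18 ± 0.186 CPM in Vehicle (log2 fold change -3.57, adjusted p = 1.64e-15), and NFKBIZ, a nuclear cofactor of NF-kB, averaged 4.02 ± 0.641 CPM in H151_iR4, 22.7 ± 4.26 CPM in iR4 and 4.38 ± 0.584 CPM in Vehicle (log2 fold change -2.48, adjusted p = 1.4e-14). The NF-kB site, searched as GGGA, any base and TTTCC on either strand, stood in 5 of the 17 promoters matched (29.4%) and in 64 of 10960 promoters of tested genes (0.584%). TNFRSF9, the costimulatory receptor 4-1BB, was among the 8 largest falls, with 0.772, 0.326 and 0.333 CPM in H151_iR4 libraries, against 12.2, 12.5 and 15.9 CPM in iR4 libraries (log2 fold change -4.88, SE 0.20, adjusted p = 9.08e-17), as was RNASE7, an antimicrobial ribonuclease of skin, with 0.708, 0.652 and 0.721 CPM in H151_iR4 libraries, against 21.8, 19.4 and 21.3 CPM in iR4 libraries (log2 fold change -4.91, SE 0.14, adjusted p = 1.29e-19). Of 12 testable ligands of T and NK cell receptors 8 were lower and 0 higher. They included ULBP1, ULBP2 and MICB, ligands of the activating receptor NKG2D, at -1.99, -1.0 and -0.89.

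Genes of the integrated stress response, in which the factor ATF4 answers amino acid loss and unfolded protein, were lower in 30 of 40 members and higher in 5, with a median of -0.68. ATF3, a stress-induced repressor and also an immediate early gene, had 20.1, 26.5 and 21.5 CPM in H151_iR4 libraries, 318, 319.9 and 425 CPM in iR4 libraries and 24.8, 25.9 and 24.6 CPM in Vehicle libraries (log2 fold change -3.95, SE 0.09, adjusted p = 2.27e-21). DDIT3, the factor CHOP, had 12.9, 15.1 and 14.03 CPM in H151_iR4 libraries, 106, 100.8 and 121 CPM in iR4 libraries and 9.41, 8.28 and 8.497 CPM in Vehicle libraries (log2 fold change -2.95, SE 0.07, adjusted p = 1.67e-21), and NUPR1 averaged 7.29 ± 1.42 CPM in H151_iR4, 55.2 ± 3.11 CPM in iR4 and 3.71 ± 0.444 CPM in Vehicle (log2 fold change -2.90, SE 0.08, adjusted p = 1.22e-19). H151_iR4 did not return to Vehicle for all of these. In the list, 26 of 40 members were above Vehicle in H151_iR4 and 1 below, with a median of 0.21, beside 8.71% higher over all genes, and DDIT3 (0.69) and NUPR1 (1.0) were among those above. The largest rise against iR4 that met the naming rule was SLC7A5, a transporter of large neutral amino acids (0.41), which was just below Vehicle (log2 difference -0.10, adjusted p = 0.0205). DDIT3 overlaps MARS1 and MBD6 on the opposite strand.

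The hormones that such stress releases from cells had the lowest median of the lists, -3.43, and all 4 were lower. The list was chosen with earlier results of these data known, so its rank is not read as a result. FGF21 passed the filter on low counts through the iR4 libraries alone, which favours a fall. GDF15, which signals to the hindbrain to lower appetite, had 6.18, 5.91 and 5.16 CPM in H151_iR4 libraries, 158, 134 and 169 CPM in iR4 libraries and 2.84, 2.63 and 2.66 CPM in Vehicle libraries (log2 fold change -4.74, SE 0.09, adjusted p = 1.28e-23). INHBE, an inhibin subunit, had 7.53, 7.77 and 9.32 CPM in H151_iR4 libraries, 110.1, 102 and 123 CPM in iR4 libraries and 2.51, 3.03 and 4.01 CPM in Vehicle libraries (log2 fold change -3.77, SE 0.08, adjusted p = 6.96e-22). ADM2 averaged 4.15 ± 0.348 CPM in H151_iR4, 13.8 ± 1.95 CPM in iR4 and 2.05 ± 0.0561 CPM in Vehicle (log2 fold change -1.75, adjusted p = 8.57e-13), and FGF21 had 0.257, 0.326 and 0.166 CPM in H151_iR4 libraries, 2.33, 1.82 and 2.39 CPM in iR4 libraries and 0, 0.149 and 0.145 CPM in Vehicle libraries (log2 fold change -3.08, adjusted p = 6.91e-09). The order was iR4 above H151_iR4 above Vehicle for each, and the difference between H151_iR4 and Vehicle passed for GDF15, INHBE and ADM2 (1.08, 1.36 and 1.01) and not for FGF21 (adjusted p = 0.193). The element that ATF4 and C/EBP factors share was searched as TGATGNAA or TTNCATCA, and stood in 5 of 35 promoters of the ATF4 list (14.3%) and in 158 of 10960 promoters of tested genes (1.44%). ATF3 is shown because it led the list and holds the element before the first of its annotated starts, at chr1:212565191-212565248 on the plus strand, with the match in capitals.
ATF3: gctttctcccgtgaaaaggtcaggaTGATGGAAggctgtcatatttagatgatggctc

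HSPA6 had the largest fall among the heat shock chaperones, a list with changes in both directions. Of 26 genes 14 were lower and 8 higher, beside 36.3% lower and 35.1% higher over all genes, with a median of -0.16. HSPA6, a strictly inducible HSP70, had 1.61, 1.396 and 1.83 CPM in H151_iR4 libraries, 76.6, 63.96 and 124 CPM in iR4 libraries and 0.749, 1.19 and 1.45 CPM in Vehicle libraries (log2 fold change -5.79, SE 0.25, adjusted p = 1.63e-16). It was under 2 CPM in every H151_iR4 and Vehicle library, and the iR4 libraries varied among themselves, replicate 3 being the highest. HSPA1A and HSPA1B, near-identical copies between which reads cannot be divided with certainty, were lower at -2.39 and -2.31, and both stayed above Vehicle (0.44 and 0.50). The constitutive HSP90AB1 was higher, at 4169 ± 98.6 CPM in H151_iR4, 2474 ± 156 CPM in iR4 and 4312 ± 59.9 CPM in Vehicle (log2 fold change 0.75, SE 0.04, adjusted p = 2.05e-15). The heat shock element, searched as GAA, TTC and GAA each 2 bases apart on either strand, stood in 4 of 23 promoters of the list (17.4%) and in 31 of 10960 promoters of tested genes (0.283%). HSPA6 is shown because it had the largest fall of the list and holds the element, at chr1:161524441-161524503 on the plus strand, with the match in capitals.
HSPA6: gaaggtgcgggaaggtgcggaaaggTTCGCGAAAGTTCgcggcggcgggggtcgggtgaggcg

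Of 24 testable p53 targets 15 were lower and 3 higher. The leading falls were BBC3, the death protein PUMA (3.93 ± 0.94 CPM in H151_iR4, 18.5 ± 0.294 CPM in iR4 and 3.16 ± 0.881 CPM in Vehicle, log2 fold change -2.25), SESN2, a stress sensor that is also a target of ATF4 (-2.10), and TP53INP1 (-1.92), while XPC, a DNA damage recognition factor, was higher (0.60). Autophagy and lysosome genes were lower in 13 of 25 members and higher in 3. The cargo receptor SQSTM1 averaged 395 ± 14.7 CPM in H151_iR4, 797 ± 22.2 CPM in iR4 and 261 ± 8.47 CPM in Vehicle (log2 fold change -1.02, SE 0.04, adjusted p = 3.27e-18), OPTN was at -1.30, GABARAPL1 at -1.05 and ATG7, on the other side, at 0.30. SQSTM1 was above Vehicle in H151_iR4 (0.60) and OPTN below it (-0.23).

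Targets of NRF2, the factor that answers oxidative and electrophilic stress, were mostly higher than in both other groups. Of 25 genes 22 were higher in H151_iR4 than in iR4 and 3 lower, with a median of 0.35, and 22 were above Vehicle and 0 below, with a median of 0.56. AKR1C2, an aldo-keto reductase, had 34.2, 42.9 and 34.3 CPM in H151_iR4 libraries, 19.00, 17.8 and 17.4 CPM in iR4 libraries and 6.098, 7.39 and 8.303 CPM in Vehicle libraries (log2 fold change 1.05, SE 0.08, adjusted p = 2.7e-11). Its 3 groups were separate, with H151_iR4 highest, and the log2 difference from Vehicle was 2.36. ME1, the NADPH-making malic enzyme, averaged 155 ± 3.66 CPM in H151_iR4, 83.8 ± 2.88 CPM in iR4 and 111 ± 4.69 CPM in Vehicle (log2 fold change 0.89, SE 0.04, adjusted p = 3.78e-16). AKR1B10 had 8.81, 10.3 and 10.3 CPM in H151_iR4 libraries, 2.99, 3.43 and 3.26 CPM in iR4 libraries and 9.68, 10.5 and 9.37 CPM in Vehicle libraries (log2 fold change 1.61, SE 0.11, adjusted p = 3.07e-12) and did not differ from Vehicle beyond the threshold (log2 difference 0.00, adjusted p = 0.988). OSGIN1 was the largest of the 3 falls, at 33.9 ± 0.646 CPM in H151_iR4, 49.4 ± 2.78 CPM in iR4 and 15.2 ± 0.0895 CPM in Vehicle (log2 fold change -0.54, SE 0.05, adjusted p = 1.02e-09), and it too was above Vehicle (1.16). The antioxidant response element core, searched as TGACNNNGC or GCNNNGTCA, stood in 5 of 18 promoters of the list (27.8%) and in 1326 of 10960 promoters of tested genes (12.1%).

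Genes of the endoplasmic reticulum, chaperones among them, were also mostly higher in H151_iR4 than in iR4 and, counted separately, than in Vehicle. Here the list median of iR4 against Vehicle was -0.145, whereas that of NRF2 targets was 0.151. In the list of the unfolded protein response of that compartment, 11 of 18 members were higher than in iR4 and 4 lower (median 0.33), and 14 were above Vehicle and 0 below (median 0.30). HSP90B1, the HSP90 of the reticulum, averaged 1939.9 ± 8.08 CPM in H151_iR4, 1071 ± 16.9 CPM in iR4 and 1578 ± 32.6 CPM in Vehicle (log2 fold change 0.86, SE 0.03, adjusted p = 3.5e-18). SDF2L1 averaged 44.1 ± 2.02 CPM in H151_iR4, 24.1 ± 1.49 CPM in iR4 and 34.7 ± 2.46 CPM in Vehicle and DNAJB11 219 ± 7.37 CPM in H151_iR4, 132 ± 4.41 CPM in iR4 and 167 ± 3.59 CPM in Vehicle, with log2 fold changes of 0.87 and 0.72. XBP1, the factor spliced by the sensor IRE1, was the largest fall at 78.8 ± 6.14 CPM in H151_iR4, 138 ± 11.7 CPM in iR4 and 58.6 ± 2.22 CPM in Vehicle (log2 fold change -0.80, SE 0.05, adjusted p = 1.04e-12).

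**Figure D3:**
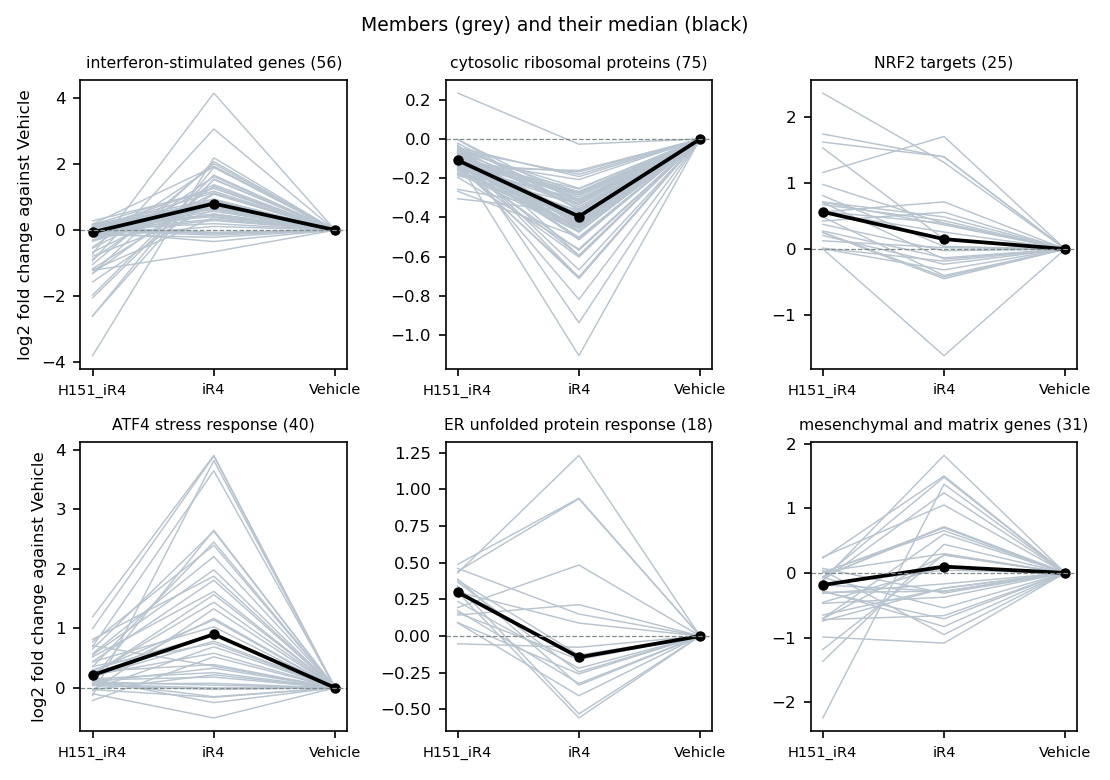
Log2 fold change against Vehicle of the members of 6 lists (grey lines, 1 per gene, number in brackets) and their median (black), for H151_iR4, iR4 and Vehicle, the last fixed at 0. The median of interferon-stimulated genes was -0.07 in H151_iR4 and 0.81 in iR4, and that of NRF2 targets was 0.56 in H151_iR4 and 0.15 in iR4. Both contrasts use the same Vehicle libraries.

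Fast-response genes downstream of MAP kinases were lower in most cases. Of 16 feedback regulators of the pathway 13 were lower and 2 higher, with a median of -1.54. SPRY4 averaged 2.46 ± 0.446 CPM in H151_iR4, 22.6 ± 3.14 CPM in iR4 and 1.34 ± 0.381 CPM in Vehicle, and the phosphatases DUSP10 and DUSP5 averaged 4.66 ± 0.612 CPM in H151_iR4, 37.8 ± 4.06 CPM in iR4 and 5.87 ± 1.32 CPM in Vehicle and 8.42 ± 1.198 CPM in H151_iR4, 67.2 ± 5.32 CPM in iR4 and 7.92 ± 0.793 CPM in Vehicle (log2 fold changes -3.19, -3.04 and -2.99). DUSP7, another phosphatase, was higher at 0.50. Of 27 immediate early genes 18 were lower and 3 higher. MAFF was at -3.15 and the phosphatase DUSP1 at -3.01, whereas EGR1 had 164, 260.1 and 155 CPM in H151_iR4 libraries, 91.6, 63.5 and 87.7 CPM in iR4 libraries and 231, 223 and 155 CPM in Vehicle libraries (log2 fold change 1.26, SE 0.15, adjusted p = 4.14e-08). The EGR1 libraries were spread within each group, and the 2 groups of the comparison still did not overlap.

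Genes of adhesion, matrix and the squamous state were partly below Vehicle in H151_iR4. Of 18 testable targets of YAP-TEAD, the factors that answer cell stretch and contact, 12 were lower than in iR4, 3 higher, and 12 were below Vehicle and 0 above. ANKRD1 averaged 8.82 ± 1.43 CPM in H151_iR4, 83.6 ± 13.1 CPM in iR4 and 12.5 ± 1.17 CPM in Vehicle (log2 fold change -3.25, adjusted p = 5.77e-19), AMOTL2 was at -1.48, and F3, the clotting initiator tissue factor, had 78.5, 74.9 and 62.7 CPM in H151_iR4 libraries, 210.0, 188 and 199 CPM in iR4 libraries and 179, 160.3 and 149.7 CPM in Vehicle libraries (log2 fold change -1.47, SE 0.06, adjusted p = 1.89e-16). Of 31 testable mesenchymal and matrix genes 20 were lower and 6 higher, with 18 below Vehicle and 1 above. FN1, fibronectin, had 27.9, 27.4 and 27.6 CPM in H151_iR4 libraries, 99.96, 94.8 and 95.8 CPM in iR4 libraries and 71.8, 69.1 and 72.99 CPM in Vehicle libraries (log2 fold change -1.81, SE 0.04, adjusted p = 4.73e-21), a level also below Vehicle (log2 difference -1.37, adjusted p = 2.26e-16). For F3 and FN1 every H151_iR4 library was below every iR4 and every Vehicle library. PLAU, the urokinase protease, and SNAI2, a repressor of epithelial genes, were lower at -1.93 and -1.55 without passing against Vehicle, and LOX, a collagen cross-linker, was higher at 0.99.

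Of 28 testable squamous differentiation genes 15 were lower and 7 higher than in iR4, and 18 were below Vehicle and 0 above, with medians of -0.20 and -0.24. KRT17 had 243, 241 and 227 CPM in H151_iR4 libraries, 633, 598 and 612 CPM in iR4 libraries and 364, 369 and 355 CPM in Vehicle libraries (log2 fold change -1.37, SE 0.03, adjusted p = 8.4e-21) and differed from Vehicle too (log2 difference -0.61, adjusted p = 1.54e-12). The stress keratin KRT16 was at -1.40, and of the desmosomal cadherins DSG3 was lower (26.1 ± 0.819 CPM in H151_iR4 and 71.9 ± 6.89 CPM in iR4, log2 fold change -1.46, adjusted p = 3.56e-16) and DSC3 higher (62.1 ± 2.91 CPM in H151_iR4 and 30.2 ± 0.492 CPM in iR4, log2 fold change 1.05, adjusted p = 9.43e-16). These genes include the markers that identify the line, of which 6 of 8 were lower than in iR4, 1 higher and 1 not called. KRT17 and KRT16 have close relatives and pseudogenes in the genome, and reads shared with them could have been split or lost in the counting.

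Lipid synthesis divided by pathway. Of 25 cholesterol synthesis and uptake genes 20 were lower and 3 higher, with a median of -0.66. INSIG1, which holds the sterol sensor in the reticulum, had 50.2, 54.96 and 59.3 CPM in H151_iR4 libraries, 260.3, 250.4 and 233 CPM in iR4 libraries and 48.5, 51.5 and 56.6 CPM in Vehicle libraries (log2 fold change -2.17, SE 0.05, adjusted p = 4.43e-21). MSMO1, a sterol oxidase of the pathway, averaged 28.4 ± 0.632 CPM in H151_iR4, 86.05 ± 5.34 CPM in iR4 and 28.4 ± 1.24 CPM in Vehicle (log2 fold change -1.60). Neither gene differed from Vehicle beyond the threshold (adjusted p = 0.466 and 0.995). PMVK was the largest rise that met the naming rule (0.93). A member that did not meet it reached 2.47, and 1 member was called higher by 2-fold or more. Of 14 fatty acid synthesis genes 9 were higher and 3 lower. ACACA, the carboxylase that commits carbon to fatty acids, averaged 191 ± 3.67 CPM in H151_iR4, 102 ± 2.16 CPM in iR4 and 175 ± 5.76 CPM in Vehicle (log2 fold change 0.90, SE 0.04, adjusted p = 4.57e-17), ELOVL6, an elongase, was at 0.59, and ACSS2, which activates acetate, was lower at -1.36.

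The 8 largest rises held 4 noncoding RNAs. SLC19A1, the reduced folate carrier, led them, with 83.9, 73.6 and 69.6 CPM in H151_iR4 libraries, 10.99, 10.04 and 9.35 CPM in iR4 libraries and 74.1, 68.7 and 64.8 CPM in Vehicle libraries (log2 fold change 2.90, SE 0.08, adjusted p = 1.66e-20). SNHG3, a noncoding host of small nucleolar RNAs, had 109.8, 108 and 116 CPM in H151_iR4 libraries, 20.5, 19.97 and 19.5 CPM in iR4 libraries and 119.9, 114 and 111 CPM in Vehicle libraries (log2 fold change 2.48, SE 0.05, adjusted p = 7.44e-23), and its iR4 libraries stood far below the other 6. DHRS2, a short-chain dehydrogenase, had 16.7, 16.2 and 16.1 CPM in H151_iR4 libraries, 2.59, 1.98 and 2.96 CPM in iR4 libraries and 9.79, 10.8 and 9.94 CPM in Vehicle libraries (log2 fold change 2.68, SE 0.11, adjusted p = 7.9e-17), above Vehicle as well (0.68). The other rises of the 8 were the noncoding RNAs LINC00641 (2.77), LINC02593 (2.33) and LINC01963 (2.29), and LNP1 (2.59) and FAM72C (2.11). SNHG3 lies on the same strand within the span of RCC1, SLC19A1 overlaps COL18A1, LNP1 overlaps TOMM70, and FAM72C has near-identical copies, so these counts may hold or miss reads of their neighbours or copies.

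Genes of ribosome production were nearly all higher in H151_iR4. Of 45 ribosome biogenesis factors 44 were higher and 1 lower, with a median of 0.65, beside 35.1% higher over all genes. UTP20, a factor of the small subunit processome, averaged 128 ± 3.21 CPM in H151_iR4, 59.7 ± 1.15 CPM in iR4 and 136 ± 7.297 CPM in Vehicle (log2 fold change 1.10, SE 0.04, adjusted p = 2.25e-17), NOP16 was at 1.03 and BOP1 at 1.01. NOP10, a protein of the pseudouridylation particle, was the 1 lower gene (log2 fold change -0.11, adjusted p = 0.0171), a call that was lost without H151_iR4 replicate 2 (adjusted p = 0.0654), iR4 replicate 1 (0.0756) or iR4 replicate 2 (0.0705). Of 75 cytosolic ribosomal protein genes 70 were higher and 0 lower (median 0.30), and RPL23 had 528, 515 and 516 CPM in H151_iR4 libraries, 279, 286 and 269 CPM in iR4 libraries and 532, 547 and 518 CPM in Vehicle libraries (log2 fold change 0.90, SE 0.03, adjusted p = 1.15e-17). RPL26 and RPS10 were at 0.73 and 0.99. Ribosomal protein genes have many processed copies, which could take reads from them, and RPS10 stood at 4.69 ± 0.452 CPM in H151_iR4, 2.34 ± 0.287 CPM in iR4 and 5.07 ± 0.432 CPM in Vehicle.

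The levels against Vehicle differed in size between the 2 groups. In H151_iR4, 13 of 45 biogenesis factors and 41 of 75 ribosomal proteins were below Vehicle and 0 above, with medians of -0.08 and -0.11, while in iR4, 45 of 45 and 74 of 75 were below Vehicle, with medians of -0.73 and -0.40. Hosts of small nucleolar RNAs, whose introns hold the guides for ribosomal RNA modification, were higher in 15 of 16 testable genes and lower in 1, with the highest median of the lists, 0.87. SNHG4 averaged 21.9 ± 0.642 CPM in H151_iR4, 6.87 ± 0.551 CPM in iR4 and 22.7 ± 1.08 CPM in Vehicle, SNHG5 28.4 ± 1.99 CPM in H151_iR4, 9.64 ± 0.934 CPM in iR4 and 26.5 ± 2.41 CPM in Vehicle and SNHG10 6.86 ± 0.0657 CPM in H151_iR4, 9.43 ± 0.368 CPM in iR4 and 8.97 ± 0.819 CPM in Vehicle (log2 fold changes 1.66, 1.55 and -0.46). SNHG4 lies within MATR3 and overlaps SIL1, and SNHG10 overlaps GLRX5.

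Mitosis genes were mostly higher with H-151. Of 38 mitosis genes 34 were higher and 0 lower, with a median of 0.50. ASPM, a spindle pole protein, had 150.4, 158 and 159 CPM in H151_iR4 libraries, 59.1, 61.5 and 59.6 CPM in iR4 libraries and 152, 148 and 149 CPM in Vehicle libraries (log2 fold change 1.38, SE 0.04, adjusted p = 3.36e-20). PLK1, the kinase that drives mitotic entry, averaged 206 ± 9.92 CPM in H151_iR4, 84.3 ± 3.98 CPM in iR4 and 217 ± 12.96 CPM in Vehicle and HMMR, a spindle protein, 113 ± 4.54 CPM in H151_iR4, 47.1 ± 1.43 CPM in iR4 and 121 ± 2.84 CPM in Vehicle (log2 fold changes 1.29 and 1.27). Of 41 DNA replication genes 15 were higher and 15 lower, shares near those of all genes (35.1% higher and 36.3% lower). The leading falls were CCNE2, DTL and E2F1 (-0.71, -0.63 and -0.52), which act at the start of S phase, and MCM6, a helicase subunit, was higher (0.42). Of 23 homologous recombination and Fanconi genes 14 were lower and 4 higher, with PALB2, BRCA1 and BRCA2 at -0.45, -0.44 and -0.37 and FANCF at 0.54. Shares of cells in each phase were not measured.

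Genes that process R-loops, the RNA-DNA hybrids named in the series title, were higher in 20 of 28 members and lower in 5, with a median of 0.23. SRSF1, a splicing factor whose loss lets hybrids form, had 493, 480.1 and 478 CPM in H151_iR4 libraries, 162, 172 and 165 CPM in iR4 libraries and 479.8, 482 and 474 CPM in Vehicle libraries (log2 fold change 1.54, SE 0.03, adjusted p = 3.65e-22). PIF1, a helicase, averaged 46.9 ± 4.15 CPM in H151_iR4, 17.5 ± 1.18 CPM in iR4 and 44.6 ± 3.37 CPM in Vehicle (log2 fold change 1.43, SE 0.07, adjusted p = 3.68e-15), and RNASEH1, the nuclease that cuts the RNA of hybrids, averaged 47.98 ± 1.87 CPM in H151_iR4, 26.6 ± 0.859 CPM in iR4 and 46.4 ± 2.34 CPM in Vehicle (log2 fold change 0.85, SE 0.05, adjusted p = 5.28e-13). THOC6, of the export complex THO, was lower at -0.39. Of 21 writers, erasers and readers of m6A, the methyl mark on adenosine of RNA, 16 were higher and 2 lower (median 0.23). FTO, an eraser, and the readers HNRNPC and HNRNPA2B1 were at 0.49, 0.48 and 0.43, and WTAP, of the writer complex, was lower at -0.21. No member of the m6A list and no tested member of the R-loop list was above Vehicle in H151_iR4, where 2 of 21 and 3 of 28 were below it, near the 9.58% lower over all genes.

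Housekeeping metabolism was mostly higher by less than 2-fold. Of 31 proteasome subunits 29 were higher and 0 lower (median 0.41), with PSMD12, PSMA5 and PSMC6 at 0.70, 0.70 and 0.60. Of 34 respiratory chain genes of the nucleus 19 were higher (55.9%) and 2 lower, with ATP5MC3 at 0.62, ATP5PB at 0.46, ATP5MC1 at 0.40 and COX8A at -0.32. Against Vehicle 16 of them were lower and 0 higher, beside 9.58% lower over all genes. Of 25 glycolysis and hypoxia genes 16 were higher and 4 lower. LDHA, lactate dehydrogenase, averaged 2822 ± 40.95 CPM in H151_iR4, 1619 ± 80.00 CPM in iR4 and 2959.6 ± 61.4 CPM in Vehicle (log2 fold change 0.80, SE 0.03, adjusted p = 1.4e-16), the lactate exporter SLC16A3 was at 1.0 and PFKP at 0.65, while VEGFA, the vessel growth factor, averaged 77.3 ± 3.12 CPM in H151_iR4, 217 ± 16.5 CPM in iR4 and 59.7 ± 3.19 CPM in Vehicle (log2 fold change -1.49, SE 0.05, adjusted p = 1.05e-18). Of 20 one-carbon and folate genes 12 were higher and 6 lower. MAT2A, which makes the methyl donor, was at 0.81 and PFAS, an enzyme of purine synthesis, at 0.74. In the MYC network 3 of 12 testable genes were higher and 6 lower, with MYC at 477 ± 1.15 CPM in H151_iR4, 337 ± 10.9 CPM in iR4 and 449 ± 15.8 CPM in Vehicle (log2 fold change 0.50, SE 0.03, adjusted p = 1.59e-12) and its antagonist MXD1 at 10.3 ± 1.198 CPM in H151_iR4, 69.4 ± 6.39 CPM in iR4 and 9.499 ± 1.600 CPM in Vehicle (log2 fold change -2.74, SE 0.09, adjusted p = 5.7e-19). MYCL and MLXIPL were lower at -1.10 and -0.64.

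**Figure D4:**
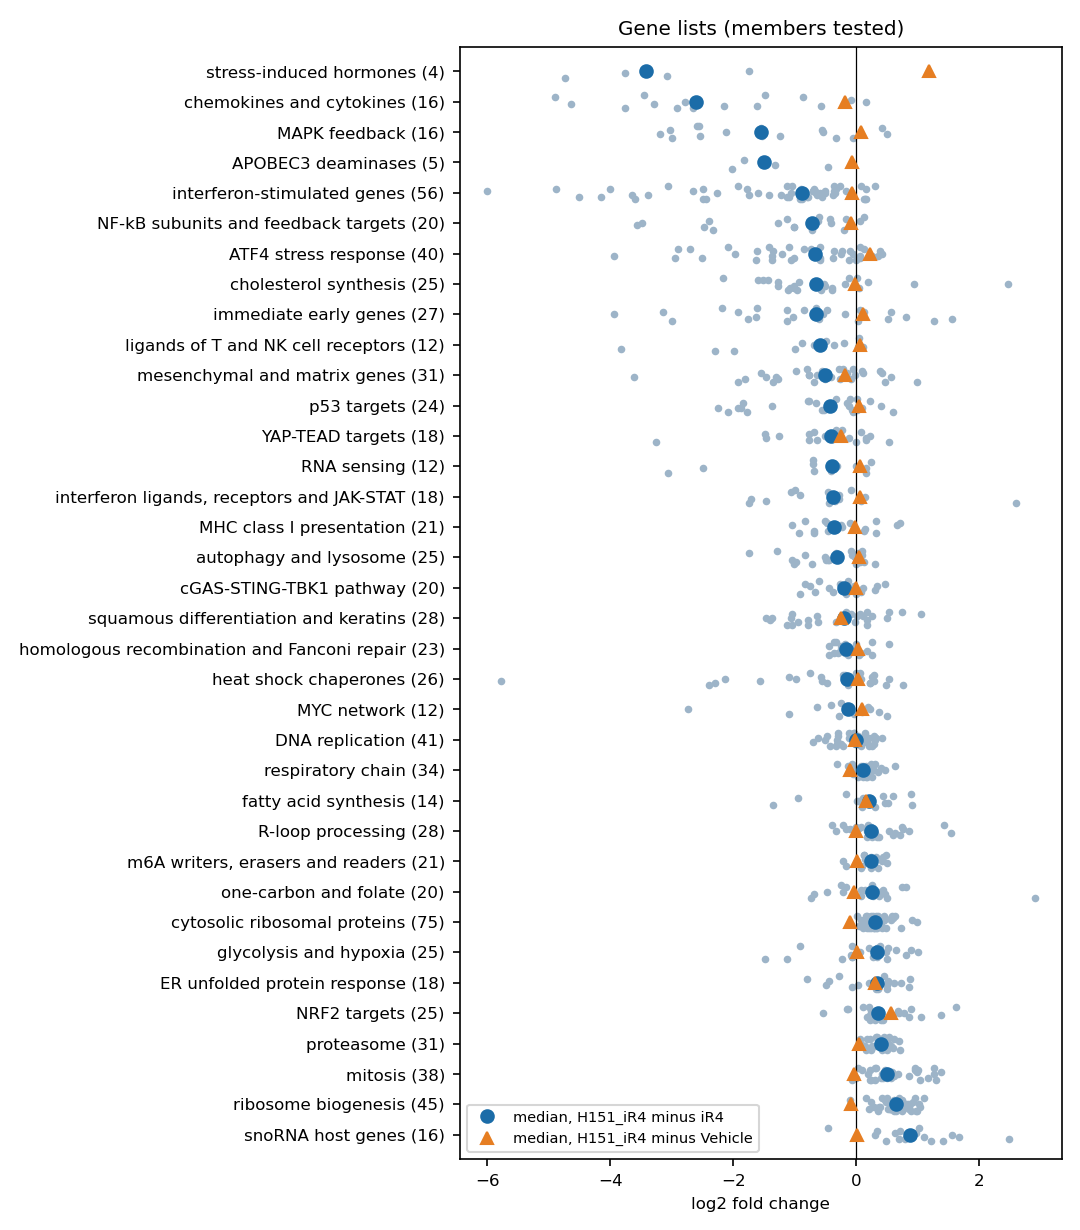
Log2 fold change of each tested member of 36 gene lists in H151_iR4 against iR4 (small points), with the list median (blue circle) and the median of H151_iR4 against Vehicle (orange triangle), ordered by the first. Medians against iR4 run from -3.43 for stress-induced hormones to 0.87 for snoRNA host genes, and medians against Vehicle include stress-induced hormones at 1.18 and NRF2 targets at 0.56. Both contrasts use the same H151_iR4 libraries.

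The same inhibitor was given to REXO4-knockout cells, which allows the change with H-151 to be set beside that under iR4. Depth was 23.96, 21.52 and 26.62 M counts in KO_2_H151 libraries and 17.67, 17.64 and 17.53 M in R4KO_2_Vehicle libraries. These groups did not overlap in depth, and what that contributes to their difference was not tested. In a fit of all 24 SCC1 libraries, KO_2_H151 was higher than R4KO_2_Vehicle for 5375 of 14585 genes (36.9%) and lower for 5306 (36.4%), 73.2% in all. The difference between both H-151 effects passed for 7397 genes (50.7%), of which 3460 were higher (23.7%) and 3937 lower (27%) under iR4. These 2 comparisons share no library. Many of the single genes given below were named for the size of their change under iR4, which is part of the difference tested. REXO4 RNA was higher with H-151 in both, with log2 fold changes of 0.57 under iR4 and 1.51 in KO_2 cells (difference -0.94, adjusted p = 1.86e-08). In KO_2 cells this is RNA of the gene that was knocked out, and REXO4 protein was not measured. Whether KO_2_H151 and R4KO_2_Vehicle hold the same knockout state was not tested.

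Interferon-stimulated genes were lower with H-151 in both settings, with a median of -0.89 under iR4 and -1.85 in KO_2 cells. For HERC5 the difference between settings did not pass (-4.52 and -4.38, difference -0.13, adjusted p = 0.815), nor did it for RIGI (-3.06 and -3.43, difference 0.37, adjusted p = 0.166). OASL fell further under iR4 (-6.01 and -4.23, difference -1.78, adjusted p = 6.6e-06), and HLA-F fell further in KO_2 cells (-1.05 and -2.33, difference 1.29, adjusted p = 2.83e-11). STING1 was at -0.68 under iR4 and -0.79 in KO_2 cells (difference 0.12, adjusted p = 0.372). CGAS was at -0.91 and -0.59 (difference -0.32, adjusted p = 0.00841), and TBK1, higher under iR4, was at -0.02 (adjusted p = 0.736) in KO_2 cells.

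The cytokine and stress lists had lower medians under iR4. The median of chemokines and cytokines was -2.62 under iR4 and -0.74 in KO_2 cells, that of stress-induced hormones -3.43 and -1.51, that of MAPK feedback genes -1.54 and -0.47, and that of ATF4 targets -0.68 and 0.16. Single genes tested for the difference were IL6 (-2.85, adjusted p = 4.14e-08), ATF3 (-3.38, adjusted p = 6.35e-15), DUSP1 (-3.04, adjusted p = 9.92e-16), GDF15 (-1.49, adjusted p = 0.000123) and INHBE (-1.52, adjusted p = 4.58e-06). IL6, ATF3, GDF15 and INHBE fell in both settings, and by more under iR4, while DUSP1 fell under iR4 and did not pass the test in KO_2 cells (log2 fold change 0.04, adjusted p = 0.757). IL6, ATF3 and DUSP1 were named for the size of their fall under iR4, which favours a larger fall there. Cholesterol synthesis had a median of -0.66 under iR4 and -1.54 in KO_2 cells, and snoRNA hosts 0.87 and 1.44. MSMO1 fell further in KO_2 cells (1.51, adjusted p = 3.01e-08), and SNHG4 rose further there (-1.22, adjusted p = 3.91e-09). The medians of lists were not tested against each other.

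**Figure D5:**
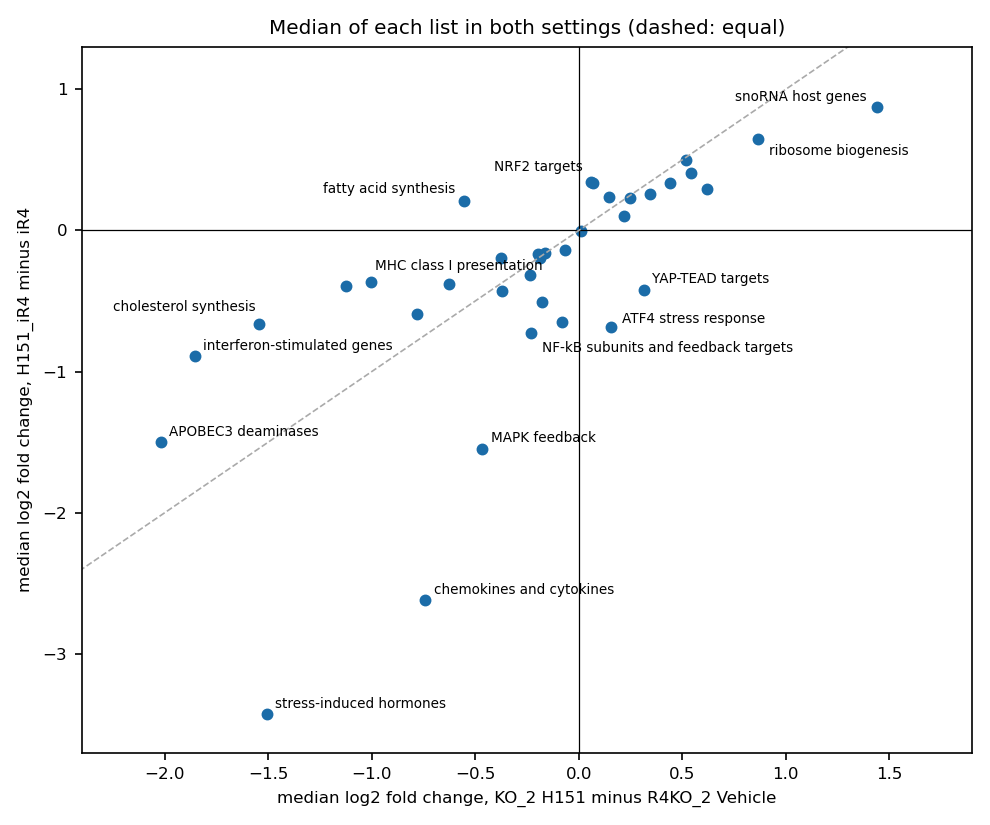
Median log2 fold change of each of 36 lists with H-151 in KO_2 cells (x axis) and with H-151 added to iR4 (y axis), with equal values on the dashed line. Stress-induced hormones (-3.43) and chemokines and cytokines (-2.62) lie lowest on the y axis, and APOBEC3 deaminases (-2.02) and interferon-stimulated genes (-1.85) lie furthest left.

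NRF2 targets had a median near 0 in KO_2 cells, 0.06. AKR1B10 was higher under iR4 (1.61) and lower in KO_2 cells (-1.89 (adjusted p = 5.01e-12)), a difference of 3.50, adjusted p = 4.45e-13. AKR1C2 was at 1.05 and -0.72 (adjusted p = 4.9e-09), a difference of 1.77, adjusted p = 1.18e-12, while ME1 was higher in both (0.89 and 0.24). Ribosome biogenesis and mitosis genes were higher in both settings, with medians of 0.65 and 0.50 under iR4 and 0.87 and 0.52 in KO_2 cells.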

How the data were processed

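Total RNA of the cell line was enriched for polyadenylated RNA, fragmented and sequenced at BGI, per the labels' protocols, although the labels' molecule field reads genomic DNA. The deposited values are raw counts per Ensembl gene, 1 library per file, made by the authors with HISAT2 2.2.1 and featureCounts 2.0.1 on hg38 after Trim Galore 0.6.4, per the submitters' processing notes, while annotation and strandedness are not given in what was used here. IDs with several lines were used once, which left 35135 IDs. Gene positions are from GENCODE v29 on GRCh38.

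Tests were run with edgeR 4.0.16 in R 4.3.3, using filterByExpr with a minimum count of 10, TMM factors, the quasi-likelihood test, Benjamini-Hochberg adjustment over all genes tested and a threshold of 0.05. The 9 libraries of H151_iR4, iR4 and Vehicle were fitted together, and all 24 SCC1 libraries for the comparison with KO_2 cells. Replicates are those of the titles, and p-values may measure technical spread only. Alternatives were other scalings and filters, DESeq2 1.42.0, a fold minimum, other sets of libraries, the replicate number as a block, and leaving out each replicate. Counts simulated for H151_iR4 against iR4 held 13775 genes. In them the test found 72% of true 1.5-fold changes, 89% of true 2-fold changes and 8 false ones. Whether these rates hold for the measured counts, where 71.4% of genes passed in either direction, was not tested.

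Named genes are REXO4, all members of the cGAS-STING-TBK1, interferon and JAK-STAT, and hormone lists, the 8 largest rises and falls among called genes whose groups did not overlap and whose average log2 CPM was 2 or more, and for each other list the 3 leading members in the direction most members took and 1 in the other. COL1A1, KRT5 and genes under the filter on low counts were named after their values were seen, and some genes that the rule names are not reported here. Members and lists were chosen with earlier results of these data known. Mouse libraries and the BX-795, R4KO_1 and Ctrl groups were left out of the comparisons.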

Additional observations from a re-analysis of the deposited data

Results flagged for a closer look

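Of 173 named genes tested, 127 had a change with H-151 that differed between iR4 and KO_2 cells in edgeR's interaction test, beside 50.7% of all genes. Many of these genes were named for the size of their change under iR4, which is part of that difference, so nothing is read from the higher share. For 16 of those reported here H-151 passed in opposite directions in the 2 settings, which is what marked them here, and all log2 values come from the fit of 24 libraries. Lower under iR4 and higher in KO_2 cells were TNFAIP3 (-3.48 under iR4, 0.83 in KO_2 cells, difference -4.31), TRAF1 (-3.57 under iR4, 0.69 in KO_2 cells, difference -4.25), F3 (-1.46 under iR4, 1.23 in KO_2 cells, difference -2.69), AMOTL2 (-1.48 under iR4, 0.92 in KO_2 cells, difference -2.4) and FN1 (-1.81 under iR4, 0.30 in KO_2 cells, difference -2.10). The same held, with smaller differences, for OSGIN1 (-0.54 under iR4, 0.64 in KO_2 cells, difference -1.18), SNHG10 (-0.45 under iR4, 0.66 in KO_2 cells, difference -1.11), E2F1 (-0.51 under iR4, 0.44 in KO_2 cells, difference -0.96), COX8A (-0.32 under iR4, 0.15 in KO_2 cells, difference -0.48) and NOP10 (-0.10 under iR4, 0.21 in KO_2 cells, difference -0.31). The call of NOP10 under iR4 comes from the fit of 9 libraries and was lost in that of 24 (adjusted p = 0.0639).

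Higher under iR4 and lower in KO_2 cells were AKR1B10 (1.62 under iR4, -1.89 in KO_2 cells, difference 3.50), IFNE (2.61 under iR4, -0.53 in KO_2 cells, difference 3.13), ELOVL6 (0.59 under iR4, -1.22 in KO_2 cells, difference 1.81), AKR1C2 (1.05 under iR4, -0.72 in KO_2 cells, difference 1.77) and DSC3 (1.05 under iR4, -0.23 in KO_2 cells, difference 1.28), and by less than 1 on the log2 scale EIF2AK2 (0.16 under iR4, -0.15 in KO_2 cells, difference 0.31). TNFAIP3, TRAF1, F3, AMOTL2 and FN1 are targets of NF-kB, YAP-TEAD or genes of the matrix by the lists used. The 2 settings differ at once in the REXO4 knockout, in the presence of iR4 and in the reference group. What each contributes cannot be told apart.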

How the results depend on the processing

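The counts of genes called in H151_iR4 against iR4 stayed within 1.5 times under other scalings and filters, DESeq2, robust dispersion and other sets of libraries, and moved with a fold minimum of 1.5, to 769 higher and 1597 lower, since that test asks for more than any change. Against Vehicle, DESeq2 called 24 genes higher by 2-fold or more, beside 37 in edgeR. Leaving out 1 replicate gave 4685 to 4835 higher and 4764 to 4944 lower (436 to 461 and 1303 to 1376 at 2-fold) against iR4, 864 to 1108 higher and 927 to 1284 lower (32 to 44 and 71 to 90) against Vehicle, and 3232 to 3355 higher and 3669 to 3821 lower (487 to 556 and 715 to 764) for the difference between settings. Same-numbered libraries did not deviate together (correlations within 0.04 of 0), and with the replicate block 4896 genes were higher and 5044 lower. Upper-quartile factors moved the median of all genes to -0.05 and gave 4425 higher and 5573 lower, with IKBKE (adjusted p = 0.0204) and IFNGR2 (0.0319) passing. IKBKE also passed without H151_iR4 replicate 2 (0.0432). With the fold minimum the calls of many lists dropped, among rises to 3 ribosomal proteins (70 without it), 22 biogenesis factors (44), 2 proteasome subunits (29), 12 mitosis genes (34), 8 NRF2 targets (22), 5 R-loop genes (20) and 0 m6A genes (16), and among falls to 32 interferon-stimulated genes (49), 20 ATF4 genes (30) and 3 cGAS-STING-TBK1 members (12). No named gene changed sign past the threshold under the alternatives run, and 55 called ones did not pass the fold minimum.

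Doses, times, strand and what a replicate is limit these results, and levels are relative within a library. Genes under the filter on low counts, interferons among them, could not be tested at this depth.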

Other observations

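Long noncoding RNAs took another course than protein-coding genes, which pseudogenes and small RNAs did not share. Of 789 long noncoding RNAs tested in H151_iR4 against iR4, 14.7% were higher and 47.8% lower, and 25.6% were lower by 2-fold or more, beside 36.5%, 36.1% and 8.23% of 12822 protein-coding genes. Among 145 genes named LINC, 9.66% were higher and 60% lower, with a median log2 fold change of -0.65 against iR4 and -0.07 against Vehicle. Protein-coding genes with 1 exon block, 283 in number, were lower in 48.8% and higher in 25.4%, and the 12539 others in 35.8% and 36.7%. Of 326 pseudogenes 29.8% were higher and 18.7% lower. Small RNAs, 56 of them, were higher in 41.1% and lower in 10.7%, although oligo(dT) enrichment does not capture most of that class.

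The direction also ran with the average level of a gene, which is taken over the same 9 libraries as the change. Level and direction are therefore not independent, and nothing is read from this trend. The filter on low counts can also admit a gene through 1 group alone. Of the 3500 genes with the lowest average log2 CPM 15.9% were higher and 40.8% lower in H151_iR4, and 22.9% were lower by 2-fold or more. These shares are near those of long noncoding RNAs, and the part of level in the latter was not tested. Of the 3500 genes with the highest average, 59.9% were higher and 22.8% lower. The 50 most abundant genes held 12.39% to 12.68% of counts in H151_iR4 libraries, 10.56% to 10.64% in iR4 libraries and 12.63% to 12.72% in Vehicle libraries. IDs with at least 1 count numbered 17650 to 18341 in H151_iR4, 18461 to 18999 in iR4 and 18164 to 18303 in Vehicle. The part of these shares in the list results was not tested.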
